A study of Mus musculus with 12 samples.

Results

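The AP-1 family and its relatives were followed across regulatory T cells (Tregs) of mouse spleen and perigonadal fat. The 10 genes were the Fos genes Fos, Fosb, Fosl1 and Fosl2, the Jun genes Jun, Junb and Jund, and the related factors Atf3, Batf3 and Maff. All probes that the array's annotation assigns to these symbols were taken from the deposited table of bead intensities that had not been normalized. Of the 10 genes 9 had at least 1 probe, and the 14 probes were among 45281 on the array. A probe was kept when 3 or more of the 12 arrays had a detection p-value under 0.05, and 11 of the 14 were kept. They stood for 8 genes among the 10025 tested. Batf3 did not pass, and Fosl1 had no annotated probe and was not analysed here.

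The study set 4 groups of 3 Illumina bead arrays against each other, all from C57BL/6 mice on chow. Control Tregs, from spleen or from fat, had the genotype Foxp3Cre, a Cre recombinase with a yellow fluorescent protein under Foxp3, the defining gene of Tregs. The other Tregs of each tissue had the genotype Tbetflox Foxp3Cre, in which the same Cre acts on a floxed Tbx21, the gene of the transcription factor T-bet. The Cre was thus carried by all 4 groups. The labels state neither the ages nor how many animals each array stands for, so p-values reflect only the scatter among these arrays, part of which may be technical.

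AP-1 is a dimer of basic leucine zipper (bZIP) proteins, in its classical form a Fos protein bound to a Jun protein. Most of its genes belong to the immediate early genes, which are transcribed within minutes of a signal to the cell, without new protein synthesis, and whose messenger RNAs are short-lived. In T cells they respond to the antigen receptor, to cytokines and to cell stress. AP-1 binds many cytokine genes together with NFAT.

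Promoters of some of these genes are shown because regulation of the family starts there. Several of the genes were also high and low in the same arrays. RefSeq's table for build GRCm38.p6 held 11 windows for 9 of the 10 genes, each with 250 bases before and 50 after the annotated start. The motifs searched on both strands were the cAMP response element (CRE) TGACGTCA, its shortened form TGACGT, the AP-1 site TGANTCA, the jun1 site TGACATCA, the jun2 site TTACCTCA, the TATA box TATAAA and the CArG box, which serum response factor binds. A shortened CRE lies within each CRE. At least 1 motif was found in 6 of the 11 windows. The share of all promoter windows with at least 1 of them was not computed, so this count has no background to be read against. Not all of the 11 windows are printed below, and those of Junb and of a second Maff start, each with a motif, are left out. Capitals mark the motifs in the printed windows, and the sequences run 5′ to 3′ along the strand of the gene.
Fos, chr12:85473640-85473939, plus strand: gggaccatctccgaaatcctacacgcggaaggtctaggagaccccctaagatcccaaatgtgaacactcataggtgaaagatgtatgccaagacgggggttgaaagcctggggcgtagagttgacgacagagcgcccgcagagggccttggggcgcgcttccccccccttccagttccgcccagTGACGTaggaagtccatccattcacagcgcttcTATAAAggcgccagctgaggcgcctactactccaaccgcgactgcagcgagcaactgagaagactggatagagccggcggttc
Fosb, chr7:19309996-19310295, minus strand: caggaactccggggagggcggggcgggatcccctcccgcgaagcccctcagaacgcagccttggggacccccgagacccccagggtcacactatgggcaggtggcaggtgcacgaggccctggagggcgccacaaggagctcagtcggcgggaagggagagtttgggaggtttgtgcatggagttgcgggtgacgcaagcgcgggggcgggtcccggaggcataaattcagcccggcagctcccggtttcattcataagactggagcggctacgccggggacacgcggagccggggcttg
Jun, chr4:95052173-95052472, minus strand: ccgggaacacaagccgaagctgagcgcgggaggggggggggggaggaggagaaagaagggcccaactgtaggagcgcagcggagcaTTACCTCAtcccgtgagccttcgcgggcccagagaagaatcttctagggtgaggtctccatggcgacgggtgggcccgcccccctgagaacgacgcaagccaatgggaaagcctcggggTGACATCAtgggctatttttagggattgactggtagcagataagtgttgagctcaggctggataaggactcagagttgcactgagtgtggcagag
Atf3, chr1:191183284-191183583, minus strand: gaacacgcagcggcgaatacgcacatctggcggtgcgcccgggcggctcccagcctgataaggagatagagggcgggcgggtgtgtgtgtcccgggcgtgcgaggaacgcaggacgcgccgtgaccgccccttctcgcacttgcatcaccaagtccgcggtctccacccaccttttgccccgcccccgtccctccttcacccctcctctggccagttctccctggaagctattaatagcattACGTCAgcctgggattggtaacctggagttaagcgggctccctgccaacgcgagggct
Maff, chr15:79347270-79347569, plus strand: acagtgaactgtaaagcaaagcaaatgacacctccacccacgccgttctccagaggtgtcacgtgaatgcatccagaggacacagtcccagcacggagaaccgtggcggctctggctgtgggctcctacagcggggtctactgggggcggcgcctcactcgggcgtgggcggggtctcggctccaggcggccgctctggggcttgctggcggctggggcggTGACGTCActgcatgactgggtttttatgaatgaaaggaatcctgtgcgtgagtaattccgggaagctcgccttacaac

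Counted from position 0 at the annotated first base, the Fos window held a shortened CRE at −66 and a TATA box at −33. The Jun window held the jun2 site at −164 and the jun1 site at −45, both known as sites through which Jun and ATF proteins act on the gene. Atf3 had a shortened CRE, on the other strand, at −8. In the Maff window a complete CRE began at −29, and another of the 3 Maff windows held a jun1 site. The Fosb window had none of these letters and neither had those of Fosl2, Jund and Batf3, while that of Junb held a TATA box at its first base. Among 32851 promoter windows of the same length, 1.79% held the CRE, 7.513% the shortened CRE, 7.808% the AP-1 site, 3.619% the jun1 site, 0.889% the jun2 site, 13.616% the TATA box and 1.629% the CArG box. These matches describe letters and were not tied to any measured difference.

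Between 27.03 and 40.85% of probes were detected per array. Arrays of a group correlated at 0.88 to 0.92 in spleen and at 0.77 to 0.84 in fat. Foxp3, and the Treg and T cell markers Il2ra, Ctla4, Cd3e and Cd4, were detected in 12 of 12 arrays. Tbx21 was detected in 2 of 3 spleen controls, in 1 of 3 spleen arrays labelled knockout and in 2 of 3 arrays of each fat group. The place of its probe relative to the deleted part is not known here, so it checks nothing. The array names share a long number, read here as the slide, which equals the replicate number, so that slides 1, 2 and 3 each hold 1 array of every group. The last letter of the array name goes with the group on every slide, so place and group cannot be told apart. On slide 3 both spleen arrays stood apart for most genes of the family, and values are therefore given by slide.

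Fat Tregs had far more Fosl2 and Atf3 signal than spleen Tregs. In control mice 2 of the 8 measured genes, Fosl2 and Atf3, rose in fat and none fell (limma, Benjamini-Hochberg adjusted p below 0.05 over all genes), where 3.66% of all tested genes rose and 2.78% fell (6.44% together). The same 2 genes rose, and none fell, in the arrays labelled knockout, where 3.39% of all genes rose and 2.38% fell (5.78% together). Averaged over both genotypes Fosb and Jund rose as well, 4 of 8 genes against 7.27% of all genes, with 8.41% lower and 15.7% in either direction. The split of higher and lower calls over all genes moved with the scaling, and under cyclic loess or median scaling more of them were higher, as the closing section gives. The median difference of the 8 genes was 2.35 on the log2 scale in controls, 1.45 in the arrays labelled knockout and 1.87 in the mean, against −0.07, −0.08 and −0.07 over all genes. The filter keeps genes that are bright in fat alone, which favours such differences, so the medians are a description. In bulk samples such as these, fewer cells of a type and less RNA per cell cannot be told apart.

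**Figure D1:**
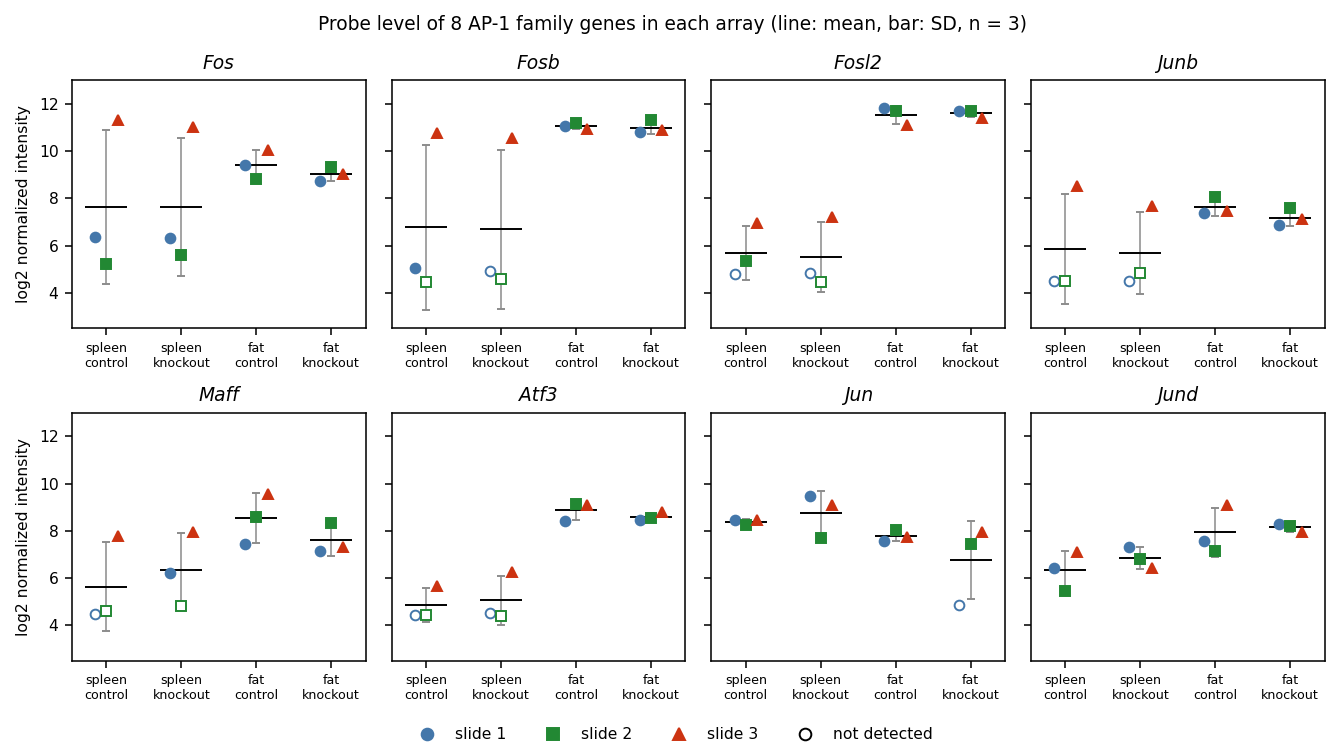
Normalized log2 signal of the 8 measured genes by group, 1 panel per gene. Points are arrays, their shape gives the slide and hollow points mark probes that were not detected, while bars give the mean and SD of 3 arrays. Fosl2, Fosb and Atf3 lie higher in every fat array than in every spleen array, and the 2 spleen arrays of slide 3 lie above the other spleen arrays in 6 panels.

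Fosl2 encodes Fra-2, a Fos protein that lacks the strong activation domain of c-Fos. On the log2 scale its brightest probe gave 4.78, 5.33 and 6.95 for spleen controls of slides 1, 2 and 3, and 4.85, 4.44 and 7.19 in the spleen arrays labelled knockout. In fat it read 11.83, 11.69 and 11.10 in controls and 11.71, 11.69 and 11.42 in the other genotype. Every fat array was thus above every spleen array, and the probe was not detected in 3 of the 6 spleen arrays, those below 5. Fat controls exceeded spleen controls by 5.86 (n = 3 per group, SE 0.69, limma adjusted p = 0.000466). The size depends on the background correction, since the spleen baseline is at or near background: it was 57.9-fold here, 33.7-fold with an offset of 50 (5.07) and 21.2-fold without correction (4.41), and passed each time. In the arrays labelled knockout the difference was 6.11 (SE 0.69, adjusted p = 0.000353). The order of the 4 groups was spleen labelled knockout (5.49 ± 1.48, SD, n = 3), spleen control (5.68 ± 1.13), fat control (11.54 ± 0.38) and fat labelled knockout (11.61 ± 0.16). Only the step between tissues was larger than the spread within groups.

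The 2 other Fosl2 probes gave the same direction. One read 4.49 to 5.43 in spleen and 9.98 to 10.80 in fat, with a control difference of 5.54 (SE 0.32, limma adjusted p over all kept probes 2.89e-06). The other read 4.45 to 4.95 in spleen and 9.19 to 9.63 in fat, with a control difference of 4.76 (adjusted p 2.89e-06). Each was detected in 1 of 6 spleen arrays and in all 6 fat arrays. They differed from the brightest probe in the spleen arrays of slide 3, which exceeded those of slides 1 and 2 by 2.22 for the brightest probe, by 0.55 and by 0.15 for these probes.

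Fosb, a Fos protein with a full activation domain, was the gene most divided by slide. It read 5.04, 4.47 and 10.77 in the spleen controls of slides 1, 2 and 3, and 4.93, 4.58 and 10.56 in the spleen arrays labelled knockout. Fat arrays read 11.07, 11.19 and 10.95 in controls and 10.80, 11.30 and 10.88 in the other genotype. The 6 fat arrays lay within 0.50 of each other, whereas the spleen arrays spanned 6.30 and only on slide 3 came close to the fat level, the highest at 10.77 just below the lowest fat array at 10.80. The same was visible before normalization, where the bead intensity in spleen controls was 122, 82.5 and 1440 on slides 1, 2 and 3 and in fat controls 2734, 2445 and 1918. In controls the difference of 4.31 had an SE of 1.64 and did not pass (limma adjusted p = 0.155), and neither did the 4.30 in the arrays labelled knockout (adjusted p = 0.164). The mean over genotypes, 4.31 (SE 1.16, and 2.99 without background correction), passed with an adjusted p of 0.0264, and not without spleen control 1 (adjusted p = 0.0676) or 2 (0.0668), without spleen labelled knockout 1 (0.0689) or 2 (0.0664), or without fat labelled knockout 2 (0.0513). Without spleen control 3 the control difference was 6.31 (adjusted p = 0.0234), and without spleen labelled knockout 3 that of the other genotype was 6.24 (0.0346).

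Fos encodes c-Fos, the founding member of the family. Spleen controls read 6.36, 5.20 and 11.32 and spleen arrays labelled knockout 6.31, 5.61 and 11.00 on slides 1, 2 and 3. Fat controls read 9.43, 8.81 and 10.03 and the other fat arrays 8.73, 9.33 and 9.03. On slide 3 the spleen arrays were the highest of the 12, above every fat array, and on slides 1 and 2 they were the lowest. Fat minus spleen was accordingly 3.07 and 3.61 on slides 1 and 2 and −1.29 on slide 3 in controls, and 2.42, 3.71 and −1.97 in the other genotype. The group difference, 1.80 in controls (SE 1.50, limma adjusted p = 0.546) and 1.39 in the other genotype (adjusted p = 0.676), was within the spread between arrays.

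Junb, a Jun protein that T cells use in effector and regulatory programmes, had the same division by slide. It read 4.51, 4.48 and 8.53 in spleen controls and 4.50, 4.84 and 7.66 in spleen arrays labelled knockout, with the values of slides 1 and 2 not detected. In fat it read 7.38, 8.06 and 7.47 in controls and 6.85, 7.59 and 7.11 in the other genotype. Fat thus exceeded spleen on slides 1 and 2 and lay below it on slide 3, in both genotypes. The differences of 1.79 in controls (SE 1.02, limma adjusted p = 0.351) and 1.52 in the other genotype (adjusted p = 0.464) did not pass. Without spleen control 3 the former was 3.14 (adjusted p = 0.0419). A second Junb probe stayed near background, at 4.40 to 5.74 over the 12 arrays, with detection in 3 of them, and showed neither pattern.

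Jund and Jun followed another course. Jund, which is present in many resting cells, read 6.41, 5.45 and 7.12 in spleen controls and 7.31, 6.81 and 6.41 in spleen arrays labelled knockout. In fat it read 7.56, 7.14 and 9.11 in controls and 8.30, 8.22 and 7.93 in the other genotype. Fat exceeded spleen on every slide in both genotypes, by 1.00 to 1.99, although the lowest fat array lay below the highest spleen array. Neither genotype alone passed (1.61, limma adjusted p = 0.105, and 1.31, adjusted p = 0.199), but the mean did (1.46, SE 0.38, adjusted p = 0.0225). That call was lost without spleen control 2 (adjusted p = 0.0548) and without spleen labelled knockout 3 (0.0561).

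Jun, which encodes c-Jun, the classical partner of c-Fos, was the only measured gene of the family with lower mean signal in fat. It read 8.47, 8.24 and 8.44 in spleen controls and 9.48, 7.70 and 9.11 in spleen arrays labelled knockout, and slide 3 did not stand apart. Fat read 7.56, 8.02 and 7.75 in controls and 4.86, 7.46 and 7.96 in the other genotype, the first of these not detected. The mean difference of −1.30 (SE 0.49) did not pass (limma adjusted p = 0.0964), though it did without fat labelled knockout 3 (−1.60, adjusted p = 0.0419). Without fat labelled knockout 1, the undetected array, it shrank to −0.83 (adjusted p = 0.125), and over all alternatives the adjusted p ran from 0.0419 to 0.272.

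Atf3, a stress-induced factor that can repress or activate with Jun partners, read 4.44, 4.45 and 5.67 in spleen controls and 4.53, 4.40 and 6.24 in spleen arrays labelled knockout. Only the spleen arrays of slide 3 were detected. In fat it read 8.40, 9.15 and 9.11 in controls and 8.45, 8.56 and 8.79 in the other genotype, so that the tissues did not overlap. The difference was 4.03 in controls (SE 0.51, limma adjusted p = 0.000715) and 3.54 in the other genotype (SE 0.51, adjusted p = 0.00193). With the spleen probe undetected in 2 of 3 controls, the control difference was 16.4-fold here, 7.92-fold with an offset of 50 (2.99) and 5.12-fold without background correction (2.36), and passed each time. From low to high the groups stood at 4.85 ± 0.71 (spleen control, SD, n = 3), 5.05 ± 1.03 (spleen labelled knockout), 8.60 ± 0.18 (fat labelled knockout) and 8.89 ± 0.42 (fat control), and neighbours within a tissue lay within their spread.

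Maff, a small Maf protein that has no activation domain of its own and pairs with other bZIP proteins, read 4.49, 4.59 and 7.79 in spleen controls. In the spleen arrays labelled knockout it read 6.20, 4.81 and 7.95. Fat read 7.44, 8.58 and 9.58 in controls and 7.13, 8.33 and 7.31 in the other genotype. Spleen slide 3 was again the highest of the spleen arrays in both genotypes, and the tissues overlapped. The differences of 2.91 in controls (SE 0.95, limma adjusted p = 0.0992) and 1.27 in the other genotype (adjusted p = 0.52) did not pass, nor did the mean of 2.09 (adjusted p = 0.0561), which passed with the slide as a replicate block (adjusted p = 0.0257). Without spleen control 3 the difference was 3.99 in controls (adjusted p = 0.0206) and 2.63 in the mean (0.011). The mean also passed without spleen labelled knockout 3 (0.0301) and without fat control 1 (0.0474). A second Maff probe was detected only in fat control 2, at 6.47.

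Batf3, best known for its need in the development of cross-presenting dendritic cells, stayed close to background. Of its 2 probes 1 was detected in 2 arrays, both of fat labelled knockout, and the other in 1 array of that group. The highest values were 5.60 and 5.22, and the spleen arrays read 4.42 to 4.68.

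All 6 fat arrays exceeded all 6 spleen arrays for 3 of the 8 genes, Fosb, Fosl2 and Atf3, against 4.85% of all tested genes. For 6 of the 8 genes, all but Jun and Jund, the range over the spleen arrays was wider than over the fat arrays, which held for 34.94% of all genes. Fos spanned 6.12 in spleen and 1.30 in fat, and Junb 4.05 and 1.20. In the same 6 genes both spleen arrays of slide 3 lay above the other spleen arrays. On slides 1 and 2 alone spleen ran from 5.20 to 6.36 for Fos and from 4.48 to 4.84 for Junb. The wide spleen range is thus no trait separate from the values of slide 3.

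**Figure D2:**
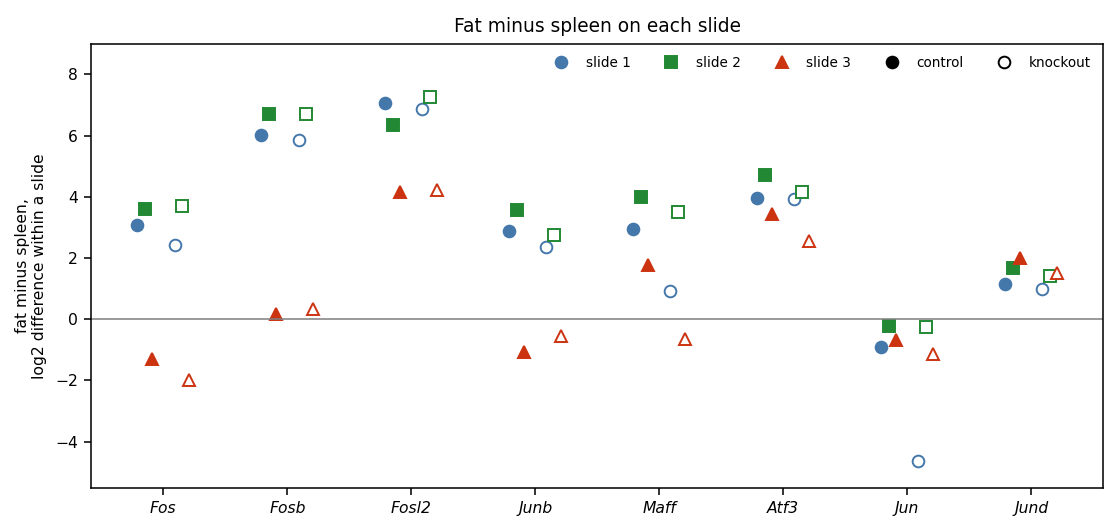
Fat minus spleen on the log2 scale for each gene, by slide and genotype, 1 point per pair of arrays. The points of slide 3 lie below those of slides 1 and 2 for Fos, Fosb, Fosl2, Junb, Maff and Atf3 in both genotypes, and below 0 in both for Fos and Junb.

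Both spleen arrays of slide 3 exceeded the 4 other spleen arrays in 6 of the 8 genes, against 11.3% of all tested genes. Ordered by the mean of those 2 arrays minus the mean of the other 4, Fosb was first of 10025 genes with 5.91, Fos was next with 5.29 and Junb stood at rank 7 with 3.51. Maff followed with 2.85 at rank 18, Fosl2 with 2.22 at rank 42 and Atf3 with 1.50 at rank 172. Jun (0.30) and Jund (0.27) were close to 0. On slides 1 and 2 Junb and Atf3 were undetected in all 4 spleen arrays and Fosb, Fosl2 and Maff in 3, so these sizes and ranks are set in part by the background correction. Without it Fos was first and Fosb next, with 3.96, Junb stood at rank 16 with 1.81, Maff at 41 with 1.45, Fosl2 at 140 with 0.98 and Atf3 at 513 with 0.62. The median of the 8 genes was 2.53 against −0.01 over all genes, and 5 of the 66 genes above 2 belonged to the family. These values are a description, since the arrays were known to differ. In fat, slide 3 minus slides 1 and 2 had a median of 0.39 over the 8 genes.

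**Figure D3:**
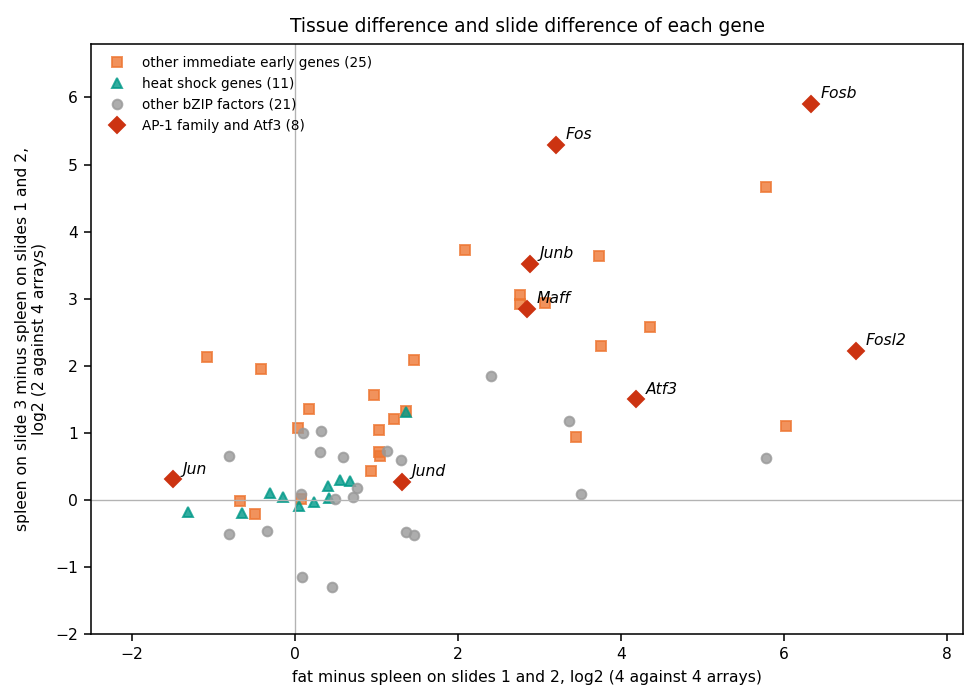
Each point is a gene, with fat minus spleen on slides 1 and 2 on the x axis and spleen on slide 3 minus spleen on slides 1 and 2 on the y axis, both as log2 differences. Diamonds are the 8 genes of the family, squares 25 other immediate early genes, triangles 11 heat shock genes and circles 21 other bZIP factors. Fosb, Fos and Junb are the highest of the family, at 5.91, 5.29 and 3.51, while Jun and Jund lie near 0 on the y axis.

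The tissue difference was therefore read within slides. On slides 1 and 2, fat minus spleen averaged over the genotypes was 6.88 for Fosl2, 6.33 for Fosb, 4.18 for Atf3, 3.20 for Fos, 2.89 for Junb and 2.85 for Maff. On slide 3 it was 4.19 for Fosl2 and 3.00 for Atf3, but 0.25 for Fosb, 0.58 for Maff, −0.81 for Junb and −1.63 for Fos. Jund differed little between the slides, at 1.31 and 1.76, and Jun was −1.50 and −0.92. The difference between slides was not tested.

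When the 2 spleen arrays of slide 3 were left out and the model was refitted, 6 of 8 genes passed in controls, 5 in the arrays labelled knockout and 7 in the mean, all higher in fat. Over all genes 2.7, 2.56 and 5.44% were called higher in this refit, fewer than with all arrays. In controls Fosb then differed by 6.31 (limma adjusted p = 4.16e-05), Fos by 3.64 (0.00435), Junb by 3.14 (0.0021) and Maff by 3.99 (0.0102). In the other genotype Fosb differed by 6.24 (4.62e-05), Fos by 3.07 (0.0101) and Junb by 2.51 (0.00674), while Maff did not pass (2.08, adjusted p = 0.133). Leaving out all 4 arrays of slide 3 gave the same counts, 6, 5 and 7, against 2.42, 2.33 and 5.69% of all genes. These arrays were left out because they were already known to stand apart, so these p-values are no independent evidence. Fosl2 and Atf3 passed with and without them.

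Other immediate early genes stood high in the same spleen arrays. Of the 25 listed, all measured, 20 were above the 4 other spleen arrays in both, and the list's median difference was 1.36. Klf4, a zinc finger factor, differed by 4.66, Ppp1r15a, which reverses the translational arrest of the stress response, by 3.73, and Dusp1, a phosphatase that switches off MAP kinases, by 2.92. Heat shock genes had a median of 0.05, and 2 of 11 measured were above in both arrays. Their differences ran from −0.20 for Hsph1 to 1.31 for Hspa1b, which was not above in both. Over all genes 11.3% were above in both. The summed linear signal of 13 measured macrophage markers in the 2 arrays was 2173 and 1085, against 415 to 1435 in the other 4 spleen arrays, and its part in the result was not tested.

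The genes whose signal over the 12 arrays was most like the mean of the 8 were Klf4 (Pearson r = 0.99), Gadd45b (0.98), Ifrd1 (0.98), Rgs16 (0.97) and Nr4a2 (0.97). After each group's mean was subtracted they were Dusp1 (0.97), Ifrd1 (0.97), Gadd45b (0.97), Klf4 (0.96) and Rgs16 (0.96). These are descriptions over 12 arrays that share the slide and tissue contrasts. Within the family Fosb followed the mean most closely, at 0.98 over the 12 arrays, and Jun ran against it, at −0.30. After each group's mean was subtracted Fos came first (0.984), ahead of Fosb (0.979), and Jun stood at 0.30. Each gene is itself part of the mean, in which genes of wide range weigh most, so this order is partly built in.

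Several bZIP factors outside the family were higher in fat. Of 21 measured, 4 rose in controls, 3 in the other genotype and 6 in the mean, and none fell, with medians of 0.80, 0.76 and 0.80. Over all genes 3.66, 3.39 and 7.27% rose. Crem, a cAMP-responsive factor with repressor isoforms, rose by 5.60 in controls (SE 0.62, limma adjusted p = 0.000358) and by 5.22 in the other genotype (adjusted p = 0.000587). Jdp2, a Jun dimerization partner and repressor, rose by 3.29 (adjusted p = 0.00013) and 3.87 (4.64e-05). Cebpb, a C/EBP factor, rose by 2.86 (0.0097) and 2.68 (0.0148).

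Upstream kinases and factors moved less. Of 18 measured, 2 rose in each genotype and none fell, namely Gadd45b, which activates stress kinase signalling (3.44, limma adjusted p = 0.0392, and 3.42, 0.0412), and Map2k3, a kinase of p38 (2.98, 0.00122, and 2.84, 0.00188). In the mean 3 rose and 1 fell: Mapk9, which encodes the kinase JNK2, fell by 2.32 (adjusted p = 0.00736). Over all genes 3.66% rose in controls and 3.39% in the other genotype, while in the mean 7.27% rose and 8.41% fell. Of the 8 partners on composite sites, Smad3 rose in both genotypes (1.56, adjusted p = 0.0148, and 1.36, 0.0301) and Irf4, which binds with AP-1 in T cells, in the arrays labelled knockout (1.60, 0.00703). Both also rose in the mean, Smad3 by 1.46 (limma adjusted p = 0.00124) and Irf4 by 1.18 (0.00234). The test of a genotype effect that differs between the tissues was passed by 0% of all genes.

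Known AP-1 target genes had a larger median than the 5 other lists of factors and response genes in each comparison of fat with spleen. Among the marker lists, macrophage and monocyte markers had larger medians still, 3.01 in controls, 2.70 in the other genotype and 2.80 in the mean. Fabp4, the measured adipocyte marker, was higher too. These rankings are a description, since the lists were chosen with earlier results of these data known. Of the 19 target genes measured, 8 rose in each genotype and 12 in the mean, none fell, and the medians were 2.77, 1.66 and 2.19. Over all genes 3.66, 3.39 and 7.27% rose. They include Il5 (7.50 in controls, limma adjusted p = 1.76e-06), Cxcl2, a neutrophil chemokine (6.76, adjusted p = 0.000715), Csf2 (5.79, adjusted p = 1.73e-06) and Il10 (4.23, adjusted p = 0.0132). Of the 25 other immediate early genes, 4 rose in controls, 3 in the other genotype and 9 in the mean, and none fell. Ier3 rose by 5.59 in controls (adjusted p = 0.000148), and Nr4a2 (3.45, adjusted p = 0.0197), Dusp5 (3.44, 0.0215) and Nr4a3 (3.13, 0.00345) rose too. Of 11 heat shock genes only the mitochondrial cochaperonin Hspe1 changed, and it fell by 1.32 in controls (adjusted p = 0.0143) and 1.25 in the other genotype (0.0198).

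Markers of other cells moved with tissue as well. Of 13 measured macrophage and monocyte markers, 7 rose in fat in each genotype and 10 in the mean, and none fell. Over all genes 3.66, 3.39 and 7.27% rose. The largest rises in controls were those of Cd163 (4.40, limma adjusted p = 0.00996), Lyz2 (4.05, 0.00562), Apoe (3.83, 0.000684) and Mrc1 (3.78, 0.00882). The summed linear signal of the 13 was 415 to 2173 in spleen controls, 615 to 1197 in spleen labelled knockout, and in fat 5769 to 18382 for controls and 5289 to 9466 for arrays labelled knockout. Itgam and Cd14 were undetected in every spleen array, and Csf1r and C1qc in every spleen array labelled knockout. For granulocyte and mast cell markers, 5 of 9 measured, the sum was 116 to 164 over the spleen arrays and 307 to 3491 over the fat arrays. The fat arrays of slide 3 had the lowest of these fat sums, 307 in the control and 344 in the array labelled knockout, against 682 to 3491 on slides 1 and 2. In the mean S100a9 rose by 3.72 (limma adjusted p = 0.0122) and Cpa3 by 1.06 (0.016). Fabp4, the measured 1 of 5 adipocyte markers, read 20.7 to 28.9 in spleen and 129 to 2648 in fat. Its fat values also divided by slide, with 139 in the control and 129 in the array labelled knockout on slide 3, and 792 to 2648 on slides 1 and 2. The 11 measured Treg and T cell markers summed to 11081 to 12795 in spleen and 9129 to 11777 in fat, sums that the brightest probes dominate. None of the 11 passed in controls, Il2ra rose in the arrays labelled knockout (1.69, limma adjusted p = 0.0282), and in the mean 3 rose, Il2ra, Ctla4 and Tnfrsf18, and 3 fell, among them Cd3d by 0.85 (adjusted p = 0.0172). The part of these markers in the tissue difference of the family was not tested.

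Of the remaining cell types, dendritic cell markers (5 of 8 measured) had 1 gene higher in the mean, Itgax (1.30, limma adjusted p = 0.0469). CD8 and NK cell markers (6 of 8) had 1 higher, Eomes (1.29, 0.0451). Erythroid and platelet markers (3 of 6) had 1 higher, Pf4 (4.26, 0.000116), and 1 lower, Hbb-bt (−3.41, 0.016). Over all genes 7.27% were higher in the mean and 8.41% lower. None of the measured B cell (1 of 6), stromal and mesothelial (1 of 8) or endothelial (3 of 6) markers passed.

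No genotype difference passed the test for any of the 8 genes. In spleen 0 of 8 passed, against 0% of all tested genes, and in fat 0 of 8 against 0.00998%, which was 1 gene (limma). The test of the difference between the tissues' genotype effects gave 0 of 8, against 0%. At an unadjusted p below 0.05 there were likewise 0 of the 8 in each of the 3 comparisons, and 219, 695 and 382 of all 10025 genes.

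The intervals show how much this leaves possible. For Atf3 knockout minus control was 0.20 in spleen (95% interval −0.91 to 1.31, limma) and −0.29 in fat (−1.40 to 0.82). For Fosl2 it was −0.19 (−1.69 to 1.31) and 0.07 (−1.43 to 1.57). Fos and Fosb, which differed between slides in spleen, had the widest intervals, for Fos −3.27 to 3.30 in spleen and −3.67 to 2.89 in fat. Each gene has 1 spread over the 4 groups, so the width for Fos in fat, where the SD was 0.61 and 0.30, is set by its spread in spleen, 3.25 and 2.93. Jun had the largest fat value, −1.02 (−2.53 to 0.49), with differences of −2.71 on slide 1, −0.56 on slide 2 and 0.21 on slide 3. The difference on slide 1 rests on the fat array labelled knockout in which Jun was not detected. Junb in fat was lower in the arrays labelled knockout on each slide, by −0.52, −0.47 and −0.36, and did not pass, with the slide as a replicate block (adjusted p = 0.981) or without. Jund was higher in the arrays labelled knockout on slides 1 and 2 and lower on slide 3, in both tissues.

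**Figure D4:**
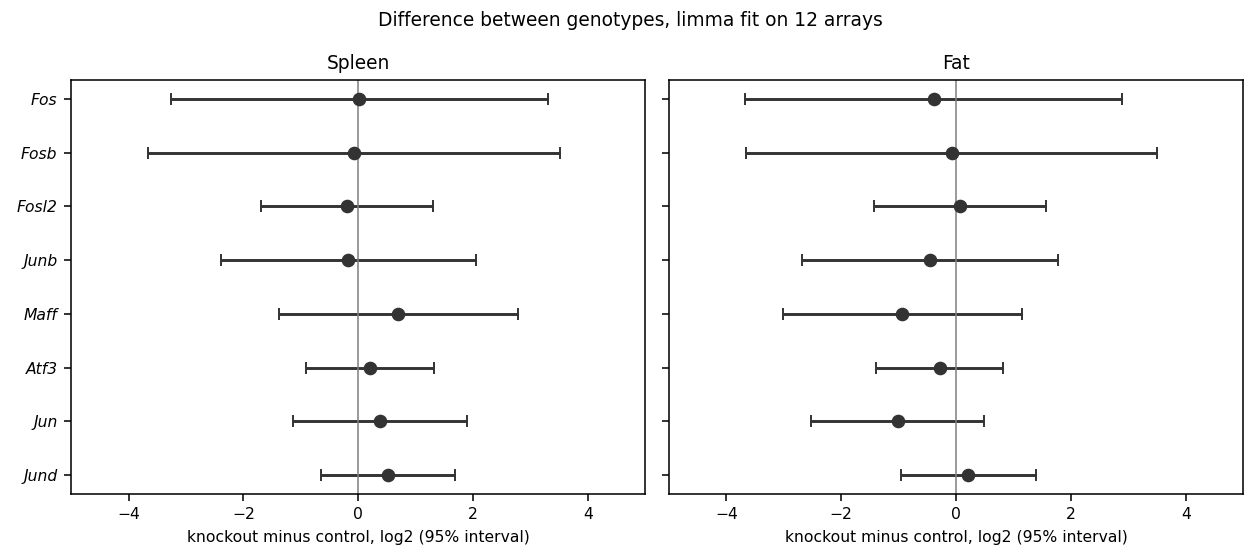
Knockout minus control on the log2 scale for the 8 genes in spleen and in fat, with the 95% interval of the limma fit on 12 arrays. All 16 intervals include 0.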

How the data were processed

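Treg RNA was amplified with NuGen kits and hybridised to Illumina arrays, per the labels. The authors deposited the bead intensity per probe, not normalized, with a detection p-value per probe and array, per the file headers, and a table of normalized intensity, whose steps are not described in the sources used here. GenomeStudio is named in the submitters' processing notes, and its version is not given in the sources used here. The deposited intensities were background corrected with nec of limma 3.58.1 (R 4.3.3, offset 16), put through quantile normalization and then log2 transformed. By the platform annotation 34885 probes had 1 symbol, 18 several and 10378 none. Of 20367 probes kept by the filter, 16470 had 1 symbol, and the brightest probe stood for each gene. A limma fit with a mean per group on 12 arrays (residual degrees of freedom 8, prior 3.88) gave 6 comparisons: fat minus spleen in each genotype and in their mean, genotype within each tissue, and the difference of the latter. The median SE between 2 groups was 0.48, and the number of arrays limits the precision. The fit was tested on simulated data.

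The number read here as the slide groups the arrays, and the titles and array names state no pairing. Deviations from group means correlated at −0.05 to 0.04 on slide 1, 0.01 to 0.16 on slide 2 and 0.07 to 0.35 on slide 3, and at −0.26 to 0.12 between slides. The 10 members, the gene lists (other bZIP factors, upstream kinases, composite-site partners, other immediate early genes, AP-1 targets, heat shock genes and markers of 10 cell types) and the alternatives were chosen with earlier results of these data known. The text names all members and, per list, up to 4 called genes with the largest change, plus the 5 genes most like the members. Klf4, Ppp1r15a, Dusp1, Hsph1 and Hspa1b were named for the spleen arrays of slide 3 after their values were seen. Batf3 stands in 2 lists. Alternatives changed background correction, normalization, filter, probe choice, variance model, slide block and the arrays used. The slide 3 differences without background correction were added after the data were seen.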

Additional observations from a re-analysis of the deposited data

Results flagged for a closer look

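Maff knockout minus control pointed one way in spleen and the other in fat. In spleen it was 1.71, 0.22 and 0.15 on slides 1, 2 and 3, and in fat −0.31, −0.25 and −2.26. The difference between the tissues was −1.64 on the log2 scale, fat minus spleen, and did not pass (limma adjusted p = 0.999, n = 3 per group).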

How the results depend on the processing

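Across 27 alternatives Fosl2 and Atf3 passed in all 3 tissue comparisons every time, with adjusted p of at most 0.00376 and 0.00634 in controls, 0.00351 and 0.0125 in the arrays labelled knockout, and 0.000197 and 0.000346 in the mean. Fosb passed in the mean in 21 of 27 and Jund in 24, both lost without the filter on dim probes (0.0925 and 0.055), and Maff gained a call in 12. Members called moved from 2 to 6 in controls, 2 to 5 in the arrays labelled knockout and 4 to 7 in the mean without both spleen arrays of slide 3, and to the same counts without slide 3, while calls over all genes fell to 417, 381 and 1103, and to 346, 344 and 1052. Without the filter the mean gave 2. With 1 array left out at a time the counts ran from 2 to 5 in controls, 2 to 3 in the other genotype and 2 to 6 in the mean. In controls the 5 came without spleen control 3. The replicate block, with the slide as a fixed term, gave 2, 2 and 5 and changed no call but that of Maff. Calls over all genes ran from 318 to 827 in controls (main 646), 305 to 682 in the other genotype (579) and 1052 to 1767 in the mean (1572). Among called genes 56.81, 58.72 and 46.37% were higher in fat in these comparisons, 73.81, 77.33 and 65.5% with median scaling and 68.27, 68.73 and 57.08% with cyclic loess.

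Genotype differences that changed sign never passed in any setting, and the cause was not tested. In spleen Fos turned to −0.039 with an offset of 50, −0.062 without background correction, −0.044 with cyclic loess, −0.12 with median scaling and −0.063 in the authors' table. With array weights Fosb turned to 1.15, Fosl2 to 0.32 and Junb to 0.58 in spleen, Fosl2 to −0.025 in fat and to −0.34 in the difference between tissues. Junb in spleen was 0.18 without both spleen arrays of slide 3 and without slide 3. Fosl2 in fat was −0.093 with cyclic loess, −0.13 with the mean of its probes and −0.057 without slide 3. In the difference between tissues Junb was 0.027 with the mean of its probes and Fosb 0.025 with median scaling. With 1 array left out the spleen differences ran from −1.67 to 1.86 for Fos, −2.01 to 1.93 for Fosb, −1.04 to 0.44 for Fosl2, −1.17 to 1.17 for Junb, −0.39 to 0.61 for Atf3 and −0.12 to 1.78 for Maff. In fat they ran from −0.15 to 0.21 for Fosl2, −0.18 to 0.80 for Jund and −0.23 to 0.019 for Fosb. In the difference between tissues they ran from −2.25 to 1.27 for Fos, −2.01 to 1.93 for Fosb, −1.62 to 0.72 for Junb, −0.37 to 1.11 for Fosl2, −0.70 to 0.29 for Jund and −0.90 to 0.10 for Atf3. The lowest detected signal, 4.83 to 5.53 per array on the log2 scale, limits what can be said of the spleen levels of Fosl2, Atf3, Junb and Fosb.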
